A study of Mus musculus with 4 samples.

Results

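The nuclear-encoded respiratory chain genes are the chromosomal genes for the protein complexes of the inner mitochondrial membrane that carry electrons to oxygen and make ATP. They were taken by symbol: every listed gene that starts with Nduf followed by a, b, c, s or v and a digit, with Cox4 to Cox8, with Uqcr, with Atp5 or with Sdha to Sdhd, leaving out Ndufa4l2. This gave 86 of the 17524 genes listed. Of these, 35 belonged to complex I, 8 to complex II, 8 to complex III, 18 to complex IV and 15 to complex V, and 2 (Atp5s and Atp5sl) belonged to no complex.

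Cells came from thoracic aortas of mice, sorted as viable after the fat around the vessel was removed, in 4 libraries of 3 pooled mice each. The WT saline and KO saline libraries came from mice on a normal diet that received saline. The WT AngII and KO AngII libraries came from mice given a high fat diet for 5 weeks and an infusion of the pressor peptide angiotensin II (AngII) for 7 days, so diet and infusion cannot be told apart. WT is wild type, and KO is the label Sting-KO, a knockout of the gene for STING, an adaptor of DNA sensing (listed here as Tmem173). The labels used here give no age, no strain and no design of the knocked-out allele. With 1 library per group, no spread between animals could be measured, no p-value was computed, and every interval below is a 95% interval that covers counting error only.

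Complexes I and II pass electrons from NADH and succinate to ubiquinone, complex III passes them on to cytochrome c, and complex IV hands them to oxygen. Complexes I, III and IV pump protons, and complex V, the ATP synthase, uses the gradient to make ATP. Complexes I, III, IV and V join subunits from the nucleus with subunits read from mitochondrial DNA, whereas complex II is wholly nuclear. Arterial smooth muscle is known for a low oxygen use and a large share of ATP from glycolysis, and several subunits of complex IV exist as pairs of isoforms that differ between tissues.

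Cells were assigned by unique molecular identifiers (UMIs, 1 per captured transcript 3′ end) of a few marker genes. The smooth muscle gate took cells with at least 3 UMIs of Myh11. The fibroblast gate took cells with at least 10 UMIs of Dcn and Lum together and at most 1 of Myh11, and the phagocyte gate took cells with at least 10 UMIs of Lyz2, C1qa and C1qb together and fewer than 10 of Dcn and Lum. With the saline and the AngII library of WT named first and those of KO after them, the smooth muscle gate held 7546, 5889, 10350 and 5660 cells, the fibroblast gate 1021, 1696, 506 and 1879, and the phagocyte gate 285, 705, 83 and 559. All values per library below keep this order. The summed lists of 8 markers fitted the names: smooth muscle markers made up 3.67% to 4.67% of UMIs in the smooth muscle gate, fibroblast markers 1.60% to 3.03% in the fibroblast gate, and phagocyte markers 2.35% to 3.28% in the phagocyte gate. Smooth muscle markers also made up 0.128% to 0.561% of UMIs in the fibroblast gate and 0.566% to 0.825% in the phagocyte gate, and in both they were highest in KO saline. Between 18 and 85 cells per library passed both the smooth muscle and the phagocyte gate.

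The libraries held 60064038 to 94698727 UMIs in 8495 to 12053 cells, and the AngII libraries were deeper per cell: the median per cell was 6406, 10298, 6466 and 8726 UMIs in the smooth muscle gate, 3608, 9154, 3874 and 11779 in the fibroblast gate, and 4678, 7905, 5113 and 7596 in the phagocyte gate. Each pair of libraries shared 92 to 148 cell barcodes. The targeted gene did not separate the genotypes. Tmem173 gave 105, 637, 102 and 578 UMIs, or 1.75, 7.03, 1.33 and 6.10 CPM (UMIs in every 1000000), and since these are 3′ tags and the deleted stretch is not given, this count does not check the genotype. KO therefore stands for the libraries labelled KO throughout.

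The start regions of 5 members are shown to give 3 windows with the motif of the transcription factor NRF1 and 2 without it. They were picked by hand after the values were seen, among members that differed the same way in both genotypes in at least 1 gate: Ndufa11, Atp5g2 and Atp5g1, which were higher in AngII, and Ndufa6 and Sdha, which were lower. Windows with the motif are therefore more common among these 5 than among all members, and other such members, Cox5a, Atp5e and Atp5o among them, are not shown and have no NRF1 match. Each is the 250 bases before the RefSeq start of the gene in mouse build GRCm38.p6, 5′ to 3′ on the gene's strand: Ndufa11 chr17:56717512-56717761 on the plus strand, and Atp5g2 chr15:102671048-102671297, Ndufa6 chr15:82354292-82354541, Atp5g1 chr11:96075632-96075881 and Sdha chr13:74350241-74350490 on the minus strand. Capitals mark the motif of NRF1, which is known to act on many respiratory chain genes.
Ndufa11: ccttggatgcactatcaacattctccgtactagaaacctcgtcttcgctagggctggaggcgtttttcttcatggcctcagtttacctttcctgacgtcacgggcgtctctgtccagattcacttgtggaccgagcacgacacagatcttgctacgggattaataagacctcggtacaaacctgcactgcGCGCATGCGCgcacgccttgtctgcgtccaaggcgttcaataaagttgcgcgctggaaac 
Atp5g2: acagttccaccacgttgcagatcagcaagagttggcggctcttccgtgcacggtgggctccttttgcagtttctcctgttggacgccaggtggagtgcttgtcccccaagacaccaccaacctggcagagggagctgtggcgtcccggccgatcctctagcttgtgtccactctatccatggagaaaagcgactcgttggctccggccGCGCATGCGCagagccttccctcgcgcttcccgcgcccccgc 
Ndufa6: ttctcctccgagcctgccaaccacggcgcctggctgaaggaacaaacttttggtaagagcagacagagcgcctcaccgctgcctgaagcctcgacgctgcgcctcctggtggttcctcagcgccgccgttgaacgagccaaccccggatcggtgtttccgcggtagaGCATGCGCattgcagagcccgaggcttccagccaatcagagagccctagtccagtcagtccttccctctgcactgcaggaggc 
Atp5g1: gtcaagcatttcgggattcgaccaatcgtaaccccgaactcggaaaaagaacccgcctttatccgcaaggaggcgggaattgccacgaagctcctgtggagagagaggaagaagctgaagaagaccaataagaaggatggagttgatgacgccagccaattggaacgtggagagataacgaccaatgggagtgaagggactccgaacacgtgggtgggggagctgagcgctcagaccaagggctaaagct 
Sdha: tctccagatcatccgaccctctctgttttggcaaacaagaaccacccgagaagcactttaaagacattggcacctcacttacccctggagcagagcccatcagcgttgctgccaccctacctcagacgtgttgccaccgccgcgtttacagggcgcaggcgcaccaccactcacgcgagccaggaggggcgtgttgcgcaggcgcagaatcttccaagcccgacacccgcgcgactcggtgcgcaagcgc

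A window was found for 70 of the 86 members. The exact NRF1 letters GCGCATGC, searched on both strands, were found for 10 of the 70 (14.3%), against 5.20% of the 12443 genes in the files with a window. A gene was counted if any of its windows had the letters. Counted by window, 2.71% of all 32851 windows had them. In Ndufa11 the match began 60 bases before the start and in Atp5g2 42 bases before it, and in both the letters were also found on the opposite strand, overlapping the first match. Ndufa6 had 1 match on the opposite strand, 83 bases before the start, and Atp5g1 and Sdha had none. The ETS letters CCGGAAGT were found for 5 members (7.14%, against 7.57% of the genes in the files) and the YY1 letters AAGATGGC for 9 (12.9%, against 4.44%), 7 of them in complex I. At least 1 of these 3 motifs was found for 23 members (32.9%, against 15.9%), and TATAAA for 8 (11.4%, against 9.89%). All of these motif counts, for members and for all genes, also take in letters at or past the start. Of the 9 members with the YY1 letters, only Atp5j had them wholly before the start. Uqcr11 and Uqcrc1 had the NRF1 letters, and Ndufs3 and Cox8a the ETS letters, only at or past it. The counts are descriptions of the letters, and the members with a match included genes on both sides of the AngII comparison.

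Summed over all 86 members, the chain took 2.58%, 2.49%, 2.66% and 2.61% of all UMIs in the smooth muscle gate, 1.88%, 2.10%, 2.16% and 2.29% in the fibroblast gate, and 2.10%, 2.41%, 2.24% and 2.61% in the phagocyte gate. Smooth muscle cells thus had the highest share in WT saline, WT AngII and KO saline, and in KO AngII they were level with phagocytes (log2 ratio of the sums 0.00, interval −0.01 to 0.01). Fibroblasts had the lowest share in all 4 libraries. Over fibroblasts, smooth muscle cells were higher by a log2 ratio of 0.45, 0.24, 0.30 and 0.19. The ratio over fibroblasts was above 0 in all 4 libraries for 52 of the 82 members with enough UMIs and below 0 in all 4 for 8, against 30.2% and 31.4% of all genes. Over phagocytes it was above 0 in all 4 libraries for 39 of 82 and below for 12, against 44.4% and 23.5% of all genes. The median member over phagocytes was at 0.30, 0.05, 0.28 and 0.02, and the median of all genes at 0.25, 0.21, 0.19 and 0.16, so that against phagocytes the members did not stand above the other genes in the AngII libraries. Single cells overlapped widely: the median cell had 2.59%, 2.51%, 2.67% and 2.59% in the smooth muscle gate, and in WT saline the 5th and the 95th percentile of these cells were 2.03% and 3.27%. In fibroblasts the median cell had 1.84%, 2.03%, 2.19% and 2.22%, and in phagocytes 2.07%, 2.32%, 2.14% and 2.50%. A lower amount of all other RNA and a higher amount of respiratory chain RNA per cell cannot be told apart in such shares.

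**Figure D1:**
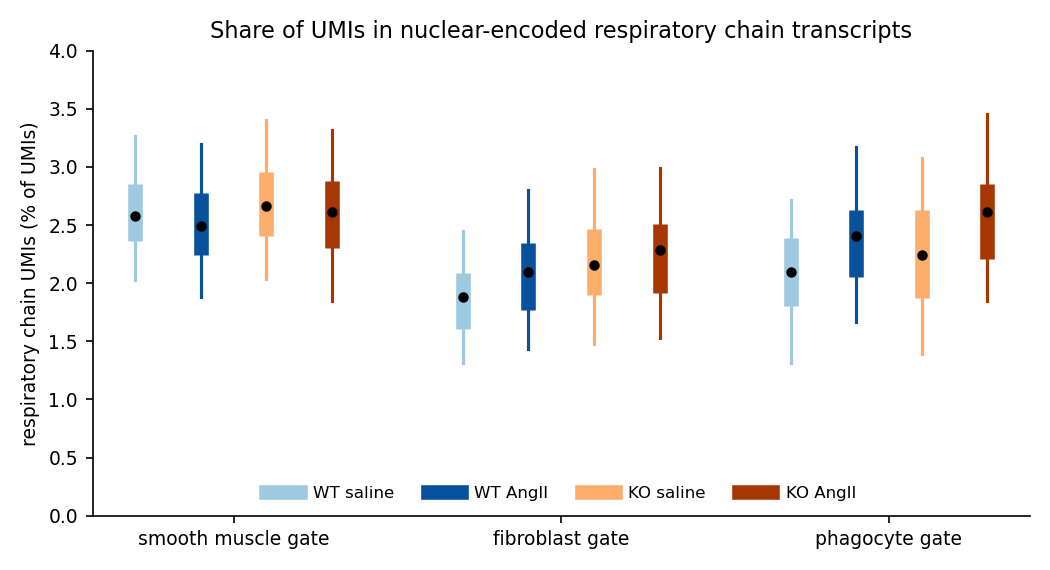
Share of UMIs in the 86 nuclear-encoded respiratory chain genes (y axis, % of UMIs) by gate and library. Black points are the summed share, boxes span the 25th to the 75th percentile of single cells and lines the 5th to the 95th percentile. Fibroblasts of WT saline were lowest at 1.88% and smooth muscle cells of KO saline highest at 2.66%, and the single cells of all groups overlapped.

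The share moved with the depth of the cell, and not one way. In WT saline smooth muscle cells it was 2.72% in cells of 3000 to 6000 UMIs and 2.43% in cells of 12000 to 24000. In KO AngII smooth muscle cells it was 2.62% and 2.67% in the same classes, and in KO AngII fibroblasts 2.04% and 2.31%. In phagocytes it was 2.19% and 2.50% in WT AngII and 2.39% and 2.79% in KO AngII. At matched depth of 6000 to 12000 UMIs, fibroblasts had 1.93%, 2.03%, 2.14% and 2.16%, so the order of the 4 libraries was kept over a narrower range. Smooth muscle cells of that class had 2.53%, 2.54%, 2.65% and 2.51%, and phagocytes 2.19%, 2.37%, 2.18% and 2.59%.

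Complex I, the NADH dehydrogenase and the largest complex, took 0.821%, 0.799%, 0.859% and 0.810% of UMIs in the smooth muscle gate, 0.611%, 0.661%, 0.707% and 0.659% in fibroblasts, and 0.608%, 0.683%, 0.642% and 0.720% in phagocytes. Its 35 members comprised 7 core subunits, which hold the flavin and the iron-sulfur clusters or their scaffold, and 28 accessory subunits. CPM of a 3′ count is not divided by transcript length, so a gene's place within its complex is one of captured 3′ ends. On that scale Ndufa2 and Ndufa13, both accessory, were the top pair of the complex in all gates and libraries: Ndufa2 had 644, 600.2, 635 and 593 CPM in smooth muscle cells and Ndufa13 581, 622, 615 and 612 CPM. The core subunit Ndufs1, which carries iron-sulfur clusters of the electron entry arm, was the lowest of the complex in every gate, at 28.9, 19.7, 27.5 and 19.8 CPM in smooth muscle cells.

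Complex II, succinate dehydrogenase, was the least abundant, with 0.0505%, 0.0458%, 0.0537% and 0.0461% of UMIs in smooth muscle cells, 0.0438%, 0.0435%, 0.0540% and 0.0422% in fibroblasts and 0.0535%, 0.0565%, 0.0559% and 0.0562% in phagocytes. This was 1.76% to 2.55% of all respiratory chain UMIs. Sdha, the flavoprotein that oxidizes succinate, had 116, 78.7, 116 and 81.6 CPM in smooth muscle cells. Sdhb, the iron-sulfur subunit, had 135, 119.6, 145 and 138 CPM there, Sdhc 109.6, 103, 124 and 97.1, and Sdhd 69.1, 61.8, 68.6 and 64.5, the last 2 being the membrane anchors. The symbol rule also took in 4 assembly factors, Sdhaf1 to Sdhaf4, which are not part of the finished enzyme. The 4 factors lay between 10.9 and 35.4 CPM in smooth muscle cells, and Sdhaf4, which assists the maturation of Sdha, was lower there than in fibroblasts in all 4 libraries (log2 ratio −0.84 to −0.40).

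Complex III, the cytochrome bc1 complex, took 0.30%, 0.288%, 0.296% and 0.290% of UMIs in smooth muscle cells, 0.220%, 0.237%, 0.233% and 0.251% in fibroblasts and 0.241%, 0.266%, 0.245% and 0.286% in phagocytes. Uqcrh, the hinge protein, gave the most 3′ UMIs in all gates and libraries, with 768, 685, 694 and 699 CPM in smooth muscle cells. Uqcrc2, a core protein of the matrix side, gave the fewest, with 115, 73.3, 97.2 and 83.9 CPM in smooth muscle cells. Cyc1, the cytochrome c1 of the complex, is not caught by the symbol rule and was counted with the context genes below.

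Complex IV, cytochrome c oxidase, took 0.779%, 0.733%, 0.786% and 0.788% of UMIs in smooth muscle cells, 0.544%, 0.594%, 0.607% and 0.666% in fibroblasts and 0.668%, 0.757%, 0.699% and 0.845% in phagocytes. Its isoform pairs divided the same way in every gate: the broadly expressed isoform carried nearly all counts. Cox4i1 had 1371, 1257, 1394 and 1408 CPM in smooth muscle cells and 1071, 1248, 1074 and 1392 in phagocytes. Cox4i2, the isoform known from lung and from low oxygen, had 21.2, 18.5, 19.4 and 22.7 CPM in smooth muscle cells, 19.2, 18.3, 31.5 and 11.7 in fibroblasts, and only 3.93, 3.73, 4.17 and 4.54 in phagocytes. The phagocyte values rest on 6, 24, 2 and 22 UMIs, against 1121 to 1368 in smooth muscle cells. In this pair of gates Cox4i2 thus had enough UMIs only through the smooth muscle gate. In KO saline phagocytes the 95% interval was 0.505 to 15.1 CPM. Smooth muscle markers were detected in the phagocyte gate, as given above, and their part in its Cox4i2 count was not tested.

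Cox6a1 had 735, 715, 717 and 782 CPM in smooth muscle cells, whereas its heart and skeletal muscle counterpart Cox6a2 was at 0.0378, 0.124, 0.0142 and 0.217 CPM there and at 2.62, 7.77, 14.6 and 5.58 CPM in phagocytes. Cox7a2 had 561, 524, 549 and 560.0 CPM in smooth muscle cells, and the muscle isoform Cox7a1 1.21, 1.90, 1.83 and 2.04 CPM there, against 9.17, 13.5, 18.8 and 16.5 CPM in phagocytes. Both muscle isoforms had higher values in phagocytes than in smooth muscle cells in all 4 libraries. The Cox7a1 values of phagocytes rest on 14, 87, 9 and 80 UMIs, and those of smooth muscle cells on 64, 123, 129 and 122. The Cox6a2 values of phagocytes rest on only 4, 50, 7 and 27 UMIs, too few for the comparisons below. Cox6a2 also overlaps an exon of Itgad, a protein-coding gene on the opposite strand. Whether counting used strand is not stated, and the part of Itgad in this count was not tested. Cox6b1 was also lower in smooth muscle cells than in phagocytes in all 4 libraries (−0.62 to −0.35). Cox6b2, known from testis, had 11.9, 13.0, 7.90 and 14.6 CPM in smooth muscle cells and 26.5, 50.4, 28.3 and 29.3 CPM in fibroblasts, and was lower in smooth muscle cells in all 4 libraries (−1.96 to −1.0). Cox8a had 758, 756, 828 and 773 CPM in smooth muscle cells. Its muscle isoform Cox8b stayed at or under 0.199 CPM there and 2.42 CPM in fibroblasts. Cox7b2, also known from testis, had 0 UMIs except for 6 in KO saline smooth muscle cells, and a count of 0 allows up to 0.0567 CPM in WT saline smooth muscle cells.

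**Figure D2:**
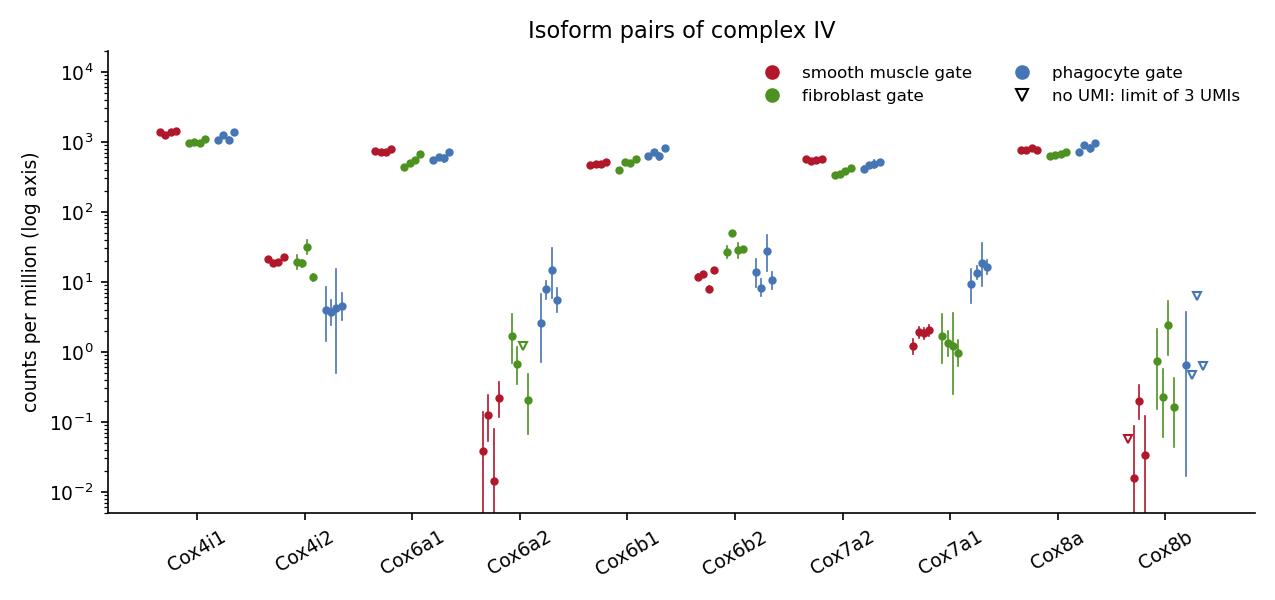
CPM (y axis, log scale) of the paired isoforms of complex IV, 4 points per gate, 1 for each library, with 95% Poisson intervals; open triangles mark the limit of 3 UMIs where none was counted. Cox4i2 is at 18.5 to 22.7 in smooth muscle cells and 3.73 to 4.54 in phagocytes, and Cox7a1 at 1.21 to 2.04 and 9.17 to 18.8.

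Complex V took 0.623%, 0.623%, 0.660% and 0.680% of UMIs in smooth muscle cells, 0.463%, 0.567%, 0.559% and 0.669% in fibroblasts and 0.528%, 0.642%, 0.596% and 0.706% in phagocytes. Within the fibroblast total of respiratory chain UMIs, complex V made up 24.6%, 27.0%, 25.9% and 29.2%, and complex I 32.4%, 31.4%, 32.7% and 28.8%. KO AngII fibroblasts were the only one of the 12 sets of cells in which complex V exceeded complex I. Atp5l or Atp5e gave the most 3′ UMIs of the complex in every gate and library. Atp5l, subunit g of the membrane part, had 811, 728, 740.1 and 760.0 CPM in smooth muscle cells. The c ring that turns with the proton flow is encoded by Atp5g1, Atp5g2 and Atp5g3, whose mature proteins are identical. Atp5g2 had 399, 406, 416 and 456 CPM in smooth muscle cells, Atp5g3 271, 213, 244 and 223, and Atp5g1 256, 367, 335 and 458.

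For the comparison of AngII with saline, a gene was tested where both libraries together held at least 100 UMIs, and it was counted as higher at 25% or more above and as lower at 20% or more below. The same counts over all genes on the CPM scale serve as background. Another scaling shifts all genes of a comparison alike. Member counts given under another scaling have no background share on that scaling beside them. Too few UMIs were counted for Cox6a2, Cox8b and Cox7b2 in smooth muscle cells, for these and Cox7a1 in fibroblasts (also Atp5s and Atp5sl between the saline libraries), and for 5 to 13 members in phagocytes. Members named below for a count of 5 or fewer that the naming rule did not pick were chosen after their values were seen. In smooth muscle cells the summed chain differed little in WT (log2 ratio −0.05) and in KO (−0.02), and both values changed sign under another scaling (0.05 and 0.13 with the trimmed mean of M values, TMM). The median member was at −0.09 in WT and −0.05 in KO, and the median of all genes tested at −0.12 and −0.17. In WT, 7 of the 83 members tested were higher and 11 lower, against 19.9% and 32.7% of all genes, which is below the background in both directions, and with TMM 9 were higher and 5 lower (10 and 4 with median-of-ratios factors). In KO, 4 were higher and 10 lower, against 15.8% and 36.0%, and with TMM 8 were higher and 4 lower (8 and 3 with median-of-ratios factors). At 1.5-fold in either direction 2 members were counted in WT (Cox7a1 and Uqcrc2, background 27.5%) and 3 in KO (Cox6b2, Atp5sl and Atp5s, background 27.7%).

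By complex, smooth muscle cells of AngII had log2 ratios to saline of −0.04 for complex I, −0.14 for II, −0.06 for III, −0.09 for IV and 0.00 for V in WT, and of −0.09, −0.22, −0.03, 0.00 and 0.04 in KO. Those of complexes I and III in both genotypes and of IV in WT were above 0 under TMM (0.02 to 0.12). Complex II was lowest in both genotypes, with an interval of −0.17 to −0.12 in WT and −0.24 to −0.20 in KO, and was at −0.04 and −0.07 under TMM and 0.00 and −0.07 with median-of-ratios factors. Sdha had the lowest ratios within it: as given above, both AngII libraries were below both saline libraries, with log2 ratios of −0.56 (−0.61 to −0.51) and −0.51 (−0.56 to −0.46). Sdhaf4 and Sdhaf3 were at 0.43 and 0.47 in WT and at −0.09 and −0.06 in KO, and a difference between the genotypes was not tested, having 1 library per group.

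Uqcrq, a small subunit of complex III at the ubiquinone side, had 315, 454, 358 and 495 CPM in smooth muscle cells. Atp5g1 had 256, 367, 335 and 458 CPM, and Ndufa11, a membrane subunit of complex I, 322, 433, 359.7 and 468 CPM. In each of these 3 genes both AngII libraries lay above both saline libraries, and the log2 ratios in WT and KO were 0.53 and 0.47 for Uqcrq, 0.52 and 0.45 for Atp5g1, and 0.43 and 0.38 for Ndufa11. These were the 3 of 83 members at least 25% higher in both genotypes in this gate, against 10.6% of all genes. The 4 at least 20% lower in both were Sdha, Ndufs1, Ndufv1 and Atp5sl, against 22.1%, so both counts were below the background. Ndufv1, which binds NADH and the flavin of complex I, had 86.5, 60.6, 93.2 and 74.3 CPM (−0.51 and −0.33). Ndufs1 had ratios of −0.55 and −0.48. Atp5sl, an assembly factor of complex I now named Dmac2, had 10.3, 7.65, 9.78 and 5.83 CPM (−0.42 and −0.75).

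Uqcrc2 was at −0.64 (−0.70 to −0.59) in WT and −0.21 (−0.26 to −0.16) in KO. Uqcrfs1, the Rieske iron-sulfur protein of complex III, had 135, 104, 109 and 126 CPM, so that AngII over saline was −0.37 (−0.42 to −0.32) in WT and 0.21 (0.17 to 0.26) in KO. In fibroblasts the signs were the same, with 134, 91.3, 92.5 and 114 CPM and ratios of −0.55 and 0.30. In phagocytes Uqcrfs1 had 128, 139, 125 and 142 CPM, and both intervals included 0. Cox6b2 was higher in KO AngII than in KO saline smooth muscle cells (0.89, 0.73 to 1.04), with KO saline the lowest of the 4 libraries.

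**Figure D3:**
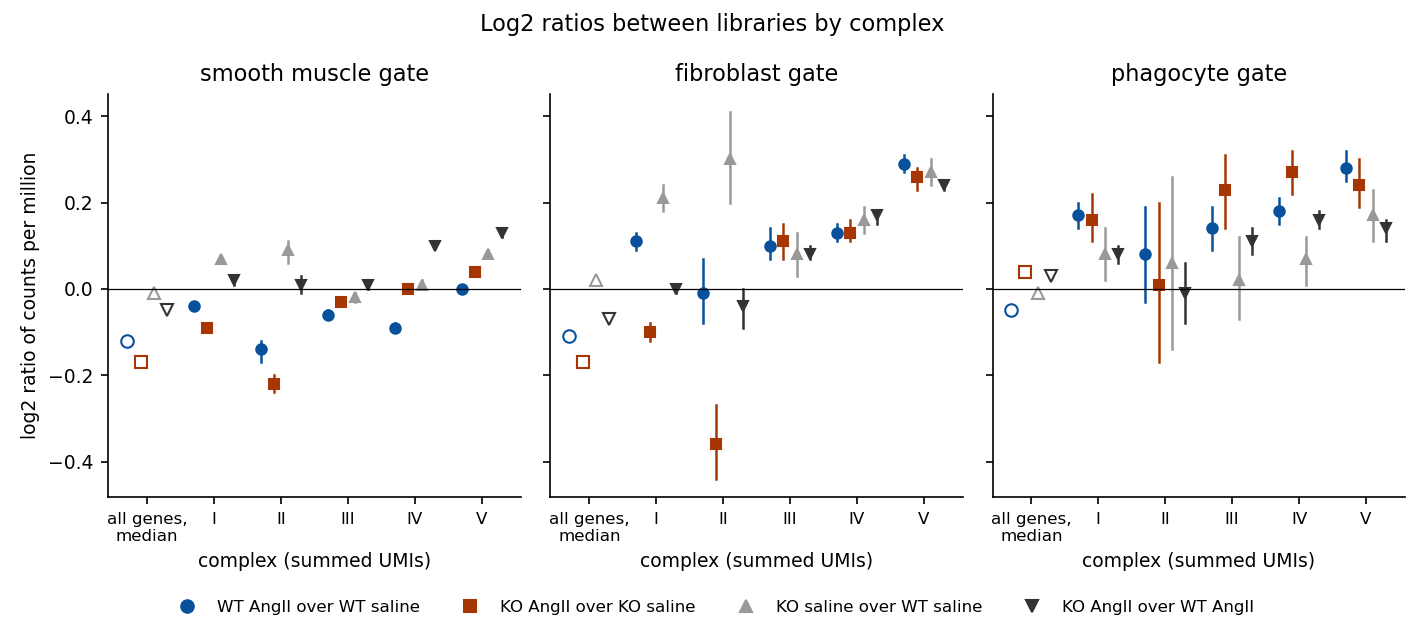
Log2 ratio between 2 libraries (y axis) of the UMIs summed over each complex, by gate, with 95% counting intervals; open symbols show the median of all genes tested. In fibroblasts and phagocytes complex V is above 0 in all 4 comparisons (0.14 to 0.29), and complex II of fibroblasts in KO is at −0.36.

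In fibroblasts the summed chain was higher in AngII than in saline, by a log2 ratio of 0.16 (0.15 to 0.17) in WT and 0.08 (0.07 to 0.09) in KO, and it remained above 0 under each alternative scaling (0.14 to 0.39). At a depth of 5000 to 15000 UMIs the values were 0.08 and 0.04. The median member was at 0.17 in WT and 0.00 in KO, against −0.11 and −0.17 for all genes. In WT, 20 of 82 members were higher and 5 lower, against 23.3% and 35.3% of all genes, and with TMM 43 were higher and 4 lower. In KO, 7 were higher and 16 lower, against 22.7% and 40.3%. This split depended on the scaling: 40 were higher and 4 lower with TMM, 27 and 5 with median-of-ratios factors, and 13 and 13 without mitochondrial and ribosomal UMIs in the denominator. TMM raised the log2 ratios of all genes alike, by 0.17 in WT and 0.31 in KO. The shares of all genes given here are without this shift. At 1.5-fold in either direction, 9 members were counted in WT (background 33.6%) and 8 in KO (background 40.5%).

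By complex, the fibroblast ratios covered a wider range. Complex V was higher in AngII by 0.29 (0.27 to 0.31) in WT and 0.26 (0.23 to 0.28) in KO, with 12 and 13 of its 15 members above 0. Of all genes tested, 42.1% in WT and 39.3% in KO were above 0. Complex IV was at 0.13 in both genotypes and complex III at 0.10 and 0.11. The median member of complex III was at −0.03 in WT and 0.01 in KO, with 3 and 4 of its 8 members above 0. Its summed CPM was 2204 in saline and 2367 in AngII in WT, and 2329 and 2508 in KO. Uqcrq alone had 229.6 and 427 CPM in WT, and 304 and 574 in KO, so the sum does not describe the complex as a whole. Complex I was at 0.11 in WT and −0.10 in KO, and the KO value was 0.21 under TMM and 0.13 under median-of-ratios factors. Complex II was at −0.01 in WT (0.16 under TMM) and −0.36 (−0.44 to −0.27) in KO, where all 8 members were below 0, and at −0.04 there under TMM.

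Within complex V, the gene with the most even difference was Atp5g1, with 208, 378, 324 and 589 CPM and a log2 ratio of 0.86 (0.76 to 0.97) in both genotypes. Atp5e, the epsilon subunit of the catalytic head, had 416, 767, 560.4 and 810.1 CPM (0.88 and 0.53). Atp5g2 had 253, 356, 307 and 459.7 CPM (0.49 and 0.58), and Atp5o, which joins the head to the stalk, 185, 249, 224 and 289 CPM (0.43 and 0.37). For all 4 genes both AngII libraries lay above both saline libraries. The third c ring gene, Atp5g3, had 156, 162, 172 and 182 CPM, and both intervals included 0 (0.06 and 0.08). In complex III, Uqcrq had 229.6, 427, 304 and 574 CPM (0.89 and 0.92), and in complex IV, Cox5a had 129, 198, 165 and 260.3 CPM (0.62 and 0.66). These were the 6 of 82 members at least 25% higher in both genotypes, a smaller share than the 13.0% of all genes.

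Sdha, Ndufa6 and Cox7a2l, 3 of 82 members, were at least 20% lower in both, against 23.9% of all genes. Sdha had 82.9, 56.3, 99.4 and 58.7 CPM (−0.56 and −0.76). Ndufa6, an accessory subunit of complex I that holds the mitochondrial acyl carrier protein, had 402, 247, 278 and 201 CPM (−0.70 and −0.47). Cox7a2l, a factor that joins complexes III and IV into a supercomplex, had 586, 387, 414 and 304 CPM (−0.60 and −0.44). In both of the last genes WT saline was the highest and KO AngII the lowest of the 4 libraries. Cox4i2 was lower in KO AngII than in KO saline (−1.43, −1.80 to −1.05), with KO saline the highest library at 31.5 CPM. Between the 2 AngII libraries it was at −0.65, which became 0.06 in cells of 5000 to 15000 UMIs. Smooth muscle markers in this gate were also highest in KO saline (0.561%), and their part in the Cox4i2 value was not tested.

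**Figure D4:**
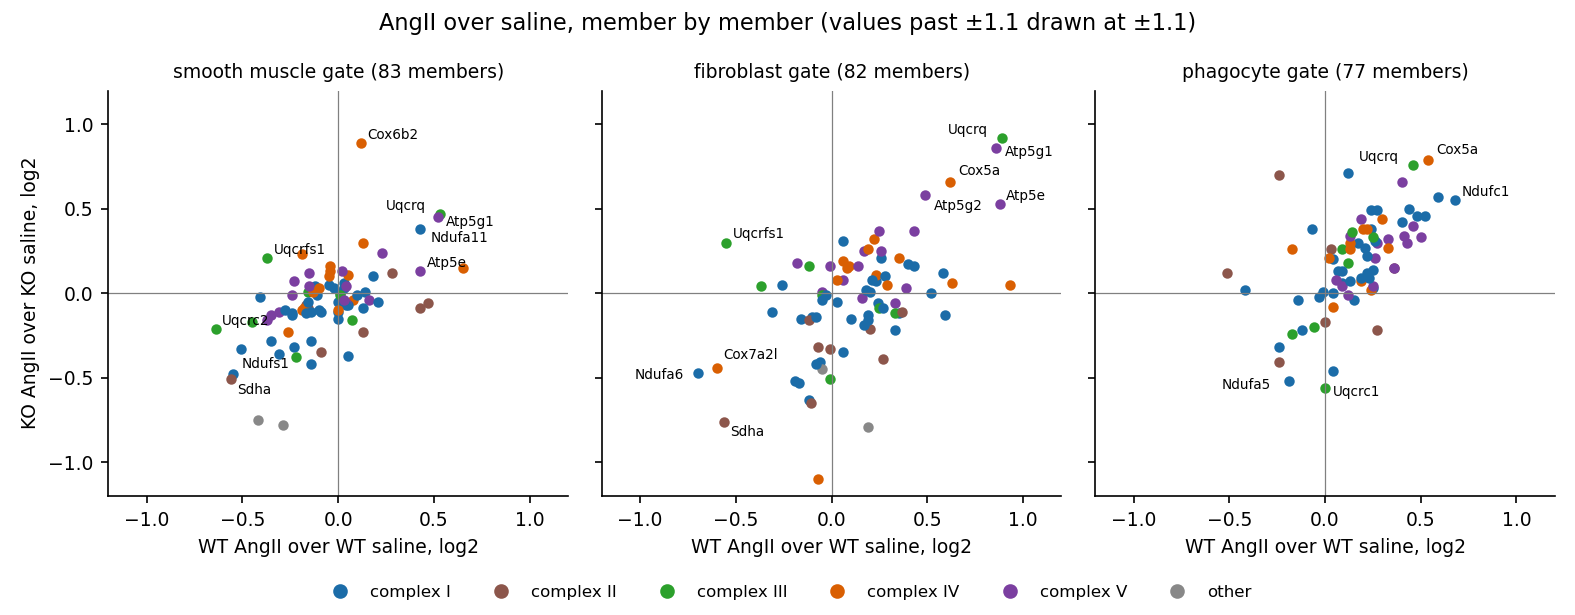
Log2 ratio of AngII over saline for each member with at least 100 UMIs, in WT (x axis) and KO (y axis), by gate and coloured by complex. Uqcrq and Atp5g1 lie at the upper right of the smooth muscle and fibroblast panels and Sdha at the lower left, and 1 fibroblast value (Cox4i2, −1.43 in KO) is drawn at the limit named in the title.

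In phagocytes the summed chain was higher in AngII by 0.20 (0.18 to 0.21) in WT and 0.22 (0.20 to 0.25) in KO, and the value was 0.15 to 0.38 over all alternatives that moved it. The KO saline library held only 83 phagocytes. The median member was at 0.19 and 0.21, and the median of all genes at −0.05 and 0.04. In WT, 18 of 79 members were higher and 2 lower (Ndufs1 and Sdhaf1), against 22.3% and 28.6% of all genes. In KO, 25 of 77 were higher and 4 lower (Ndufa5, Ndufs7, Uqcrc1 and Sdha), against 28.3% and 23.5%. The share of higher members was near the background in both, and that of lower members below it. The higher counts depended on the scaling: 38 in WT and 42 in KO with TMM, and 38 and 41 with median-of-ratios factors. TMM raised the log2 ratios of all genes alike, by 0.13 in WT and 0.15 in KO. The shares of all genes given here are without this shift. At 1.5-fold, 2 members were counted in WT (Ndufc1 and Ndufs4, background 26.2%) and 5 in KO (Atp5f1, Ndufb2, Cox5a, Uqcrq and Sdhaf2, background 26.9%).

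By complex, phagocytes had ratios of 0.17, 0.08, 0.14, 0.18 and 0.28 for complexes I to V in WT and of 0.16, 0.01, 0.23, 0.27 and 0.24 in KO. The intervals of complex II included 0 in both (−0.03 to 0.19 and −0.17 to 0.20). All 15 members of complex V were above 0 in WT and 14 in KO, against 45.8% and 53.6% of all genes. The 12 of 77 members at least 25% higher in both genotypes, against 12.2% of all genes, were 6 accessory subunits of complex I (Ndufa1, Ndufa10, Ndufb5, Ndufc1, Ndufc2 and Ndufs4), Uqcrq, Cox5a and 4 members of complex V (Atp5e, Atp5f1, Atp5g1 and Atp5o), and 0 were lower in both, against 11.3%. Cox5a, a subunit on the matrix side of complex IV, had 319, 465, 286 and 495 CPM (0.54 and 0.79). Ndufc1, a small membrane subunit of complex I, had 137, 219, 183 and 269 CPM (0.68 and 0.55). Uqcrq had 326, 448, 304 and 517 CPM (0.46 and 0.76) and Atp5g1 254, 351, 317 and 417 CPM (0.46 and 0.40). In these 4 genes both AngII libraries were above both saline libraries. Uqcrq and Atp5g1 were the only members at least 25% higher in both genotypes in all 3 gates. The share of all genes that were so in all 3 gates was not computed. The 2 genotypes use different libraries, but the 3 gates share the same 4 libraries, and the 2 genes were picked by these same values. Uqcrc1, a core protein of complex III, was at 0.00 in WT and −0.56 in KO, where its KO saline value rested on 83 cells.

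The cells of the fibroblast and phagocyte gates were deeper in AngII, and the chain's share was higher in deeper cells of both gates in the AngII libraries, as given above. The part of depth in the ratios was not tested beyond the depth window. Smooth muscle markers in the fibroblast gate were at 0.177%, 0.128%, 0.561% and 0.225% of UMIs, and fibroblast markers in the smooth muscle gate at 0.114%, 0.195%, 0.142% and 0.203%. Striated muscle markers in the smooth muscle gate were at 0.0229%, 0.00907%, 0.0312% and 0.00830%, higher in both saline libraries. Endothelial markers reached 0.0148% and fat cell markers 0.00428% of UMIs at most in any gate. In cells with at most 1 UMI of the other gates' genes, the summed AngII ratios were −0.05 and −0.02 in smooth muscle cells, 0.15 and 0.08 in fibroblasts, and 0.24 and 0.29 in phagocytes.

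For the labelled genotypes, KO saline was compared with WT saline and KO AngII with WT AngII. These comparisons share their libraries with those above, so the 4 sets of ratios are not independent of each other. In smooth muscle cells the summed chain was at 0.04 between the saline libraries and 0.07 between the AngII libraries, and the median member at 0.06 and 0.07 against −0.01 and −0.05 for all genes. Between the saline libraries, 4 of 83 members were higher (Sdhaf3, Cox7a1, Atp5g1 and Ndufs8) and 1 lower (Cox6b2), against 16.1% and 15.5% of all genes. Between the AngII libraries, 2 were higher (Ndufa9 and Atp5b) and 3 lower (Sdhaf4, Atp5sl and Atp5s), against 9.95% and 16.8%. With TMM these became 6 and 1, and 4 and 2 both with median-of-ratios factors and without mitochondrial and ribosomal UMIs. Past 1.5-fold there were 2 members between the saline libraries (Cox6b2 and Cox7a1, background 11.9%) and 0 between the AngII libraries (background 9.60%). Between the AngII libraries complexes IV and V were at 0.10 and 0.13, and complexes I to III at 0.01 to 0.02. In each of complexes IV and V, 13 of 15 tested members were above 0, against 42.2% of all genes.

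In fibroblasts the chain was higher in the libraries labelled KO, by 0.20 (0.18 to 0.21) between the saline libraries and 0.12 (0.12 to 0.13) between the AngII libraries, and the median member was at 0.27 and 0.10, against 0.02 and −0.07 for all genes. Smooth muscle markers in this gate were at 0.561% of UMIs in KO saline and 0.177% in WT saline, and at 0.225% and 0.128% in the AngII libraries, and their part in the difference was not tested. Proteasome subunits had medians of 0.27 and 0.28 in the same comparisons, with 13 of 37 and 13 of 38 at least 25% higher. Between the saline libraries, 28 of 80 members were higher and 4 lower (Uqcrh, Uqcrfs1, Ndufa6 and Cox7a2l), against 23.1% and 20.5% of all genes. Between the AngII libraries, 7 of 82 were higher (Cox6a1, Atp5b, Cox5a, Uqcrq, Atp5g1, Atp5g2 and Atp5a1) and 5 lower (Sdhaf4, Cox4i2, Cox6b2, Atp5s and Cox7a2l), against 15.5% and 27.6%. The AngII split moved to 20 and 4 with TMM, to 16 and 4 with median-of-ratios factors and to 12 and 4 without mitochondrial and ribosomal UMIs. Past 1.5-fold in either direction there were 7 between the saline libraries (background 17.7%) and 6 between the AngII libraries (background 19.2%).

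Complex V of fibroblasts was at 0.27 between the saline and 0.24 between the AngII libraries, whereas complex I was at 0.21 and 0.00 and complex II at 0.30 and −0.04. Of the 15 members of complex V, 13 and 15 were above 0, against 52.4% and 43.2% of all genes. Atp5b, the catalytic beta subunit, had 286, 339, 453 and 583 CPM. Both libraries labelled KO lay above both WT libraries, with ratios of 0.66 (0.54 to 0.78) and 0.78 (0.74 to 0.83). Atp5g1 was at 0.64 in both comparisons, with WT saline the lowest and KO AngII the highest library. In smooth muscle cells Atp5b had 459.6, 389, 526 and 523 CPM, again with both KO libraries above both WT libraries (0.20 and 0.43), and in phagocytes 387, 413, 479 and 492 CPM (0.31 and 0.25). The libraries labelled KO were above WT under both treatments in all 3 gates, which share their 4 libraries and are not replicates of the genotype.

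In phagocytes the chain was at 0.09 (0.06 to 0.12) between the saline libraries and 0.12 (0.11 to 0.13) between the AngII libraries. Of 73 members tested between the saline libraries, 7 were higher and 1 lower (Ndufb4), against 17.9% and 20% of all genes, and with TMM 3 were higher and 3 lower. Of 81 tested between the AngII libraries, 4 were higher (Ndufs1, Atp5g3, Ndufa4 and Cox6b2) and 1 lower (Atp5sl), against 13.0% and 12.7%. Past 1.5-fold there were 0 between the saline libraries (background 15.2%) and 1, Atp5sl, between the AngII libraries (background 8.13%). Ndufa4, first named as a subunit of complex I and now placed in complex IV, had 379, 336, 381 and 457 CPM and a ratio of 0.44 (0.36 to 0.53) between the AngII libraries. Cox7b, a small membrane subunit of complex IV, was higher in KO saline than in WT saline in phagocytes (0.45) and fibroblasts (0.64), and at 0.16 in smooth muscle cells.

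The 13 mitochondrially encoded subunits, the partners of complexes I, III, IV and V, are counted in the same cells. In smooth muscle cells they took 6.52%, 6.02%, 6.54% and 5.07% of UMIs. Their sum in AngII over saline was at −0.12 in WT and −0.37 in KO, beside −0.05 and −0.02 for the nuclear sum, and 1 and 10 of the 13 were at least 20% lower, against 32.7% and 36.0% of all genes. In fibroblasts the values were −0.08 and −0.34, with 2 and 8 of the 12 tested lower and 0 higher, against 35.3% and 40.3% lower of all genes, beside 0.16 and 0.08 for the nuclear sum. In phagocytes they were at 0.03 and 0.01, with 1 and 4 of 12 lower, against 28.6% and 23.5%, beside 0.20 and 0.22.

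The 7 subunits and carriers outside the symbol rule, among them Cyc1, cytochrome c and the inhibitor of complex V, were at 0.25 and 0.28 in fibroblasts and at 0.03 and −0.01 in smooth muscle cells as sums of AngII over saline. The 14 genes of fatty acid oxidation, which feeds electrons into the chain, had medians of −0.63 in WT and −0.31 in KO smooth muscle cells, with 10 and 7 of 14 at least 20% lower, against 32.7% and 36.0% of all genes. In fibroblasts the medians were −0.37 and −0.35, with 7 and 8 of 14 lower, against 35.3% and 40.3%. In phagocytes 5 of 13 were lower in WT and 2 of 11 in KO, against 28.6% and 23.5%. The 16 genes of the citric acid cycle and pyruvate dehydrogenase had medians of −0.29 and −0.13 in smooth muscle cells and of 0.00 and −0.18 in fibroblasts. Of 76 tested mitochondrial ribosomal proteins, 16 were higher and 11 lower in WT fibroblasts (median 0.10) and 21 and 16 in KO (0.00), against 23.3% and 35.3%, and 22.7% and 40.3%, of all genes. Of 12 regulators of mitochondrial biogenesis, 7 were lower and 2 higher in WT smooth muscle cells and 8 lower and 0 higher in KO (medians −0.37 and −0.35), against 32.7% and 36.0% lower of all genes. The 37 listed assembly factors had medians of 0.17 in WT and −0.18 in KO smooth muscle cells and of 0.10 and −0.16 in fibroblasts. Proteasome subunits, taken as other small housekeeping complexes, had medians of −0.12 and 0.03 in smooth muscle cells and 0.13 and 0.10 in fibroblasts, and cytosolic ribosomal proteins −0.11 and −0.02, and −0.09 and 0.31. The fibroblast medians of the respiratory chain members, 0.17 and 0.00, stand beside these.

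Members differed in length, and their relation to it differed between comparisons. Most are short: in smooth muscle cells 61 of the 82 members with a coding length and enough UMIs were under 600 bases. In WT the median log2 ratio of AngII over saline was 0.00 for these and −0.24 for the 21 longer ones. All genes were split likewise, at 0.09 and −0.15. Spearman's correlation with coding length was −0.54 in WT, against −0.23 over 11162 genes. In KO the medians were −0.01 and −0.12, against 0.02 and −0.19 for all genes. The correlation in KO was −0.28, against −0.20 over 11281 genes. Between the AngII libraries the correlation of members was 0.43 and that of all genes −0.15. In fibroblasts it was −0.36 in WT and −0.11 in KO over 81 members, against −0.17 and −0.08 for all genes, and in phagocytes −0.20 and −0.23, against −0.21 and −0.05. Between the saline libraries it was −0.10 in smooth muscle cells, −0.06 in fibroblasts and 0.06 in phagocytes, against −0.18, −0.19 and −0.14 for all genes. The long members include Uqcrc2, Sdha, Ndufs1 and Ndufv1, with ratios of −0.64, −0.56, −0.55 and −0.51 in WT. Genes within a library share its depth and RNA quality and are not independent, so these correlations are descriptions without a p-value.

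**Figure D5:**
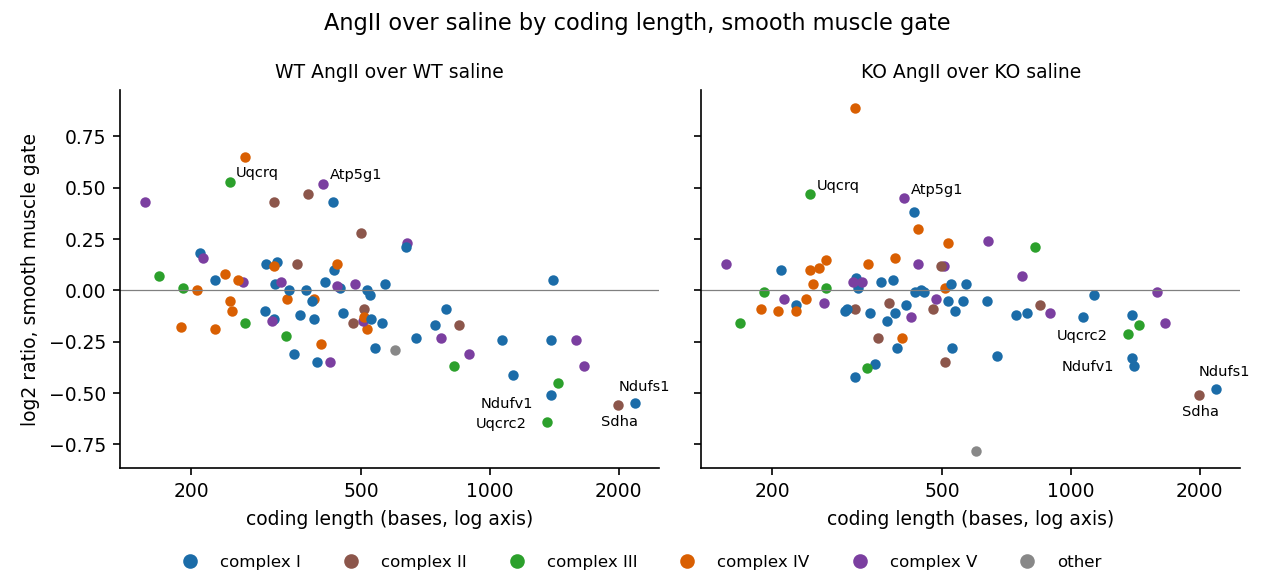
Log2 ratio of AngII over saline in the smooth muscle gate (y axis) against coding length (x axis, log scale) for members with at least 100 UMIs, in WT (left) and KO (right), coloured by complex. In WT the median is 0.00 under 600 bases and −0.24 above, against 0.09 and −0.15 for all genes.

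Some members could share counts with other genes. Atp5c1, Atp5k, Atp5l and Uqcrh have annotated copies listed as pseudogenes. Ndufb2, Ndufb8, Ndufb9 and Atp5o overlap an exon of another protein-coding gene on the same strand, which for Atp5o is Donson, so their values are uncertain to that extent. A further 23 members overlap a protein-coding gene on the opposite strand, and the sources used here do not state whether counting used strand. The scaling alternatives shifted all ratios of a comparison alike: TMM by up to 0.31 (KO fibroblasts) and by 0.10 to 0.17 in the other AngII comparisons.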

How the data were processed

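Gene expression was measured by droplet 3′ single-cell RNA sequencing in 4 libraries, 1 per group. The authors deposited raw UMI counts per gene and cell, and Cell Ranger and build mm10 are named per the submitters' processing notes. Their version and settings: not given in the sources used here. Cells under 500 detected genes or over 20% mitochondrial UMIs were left out. No doublet caller was run. UMIs were summed per library and gate and divided by all UMIs of those cells to give CPM. Log2 ratios carry exact conditional binomial (Clopper-Pearson) intervals and CPM exact Poisson intervals, at 95%. Genes with at least 100 UMIs over both libraries were counted as apart at 1.25-fold in each direction and at 1.5-fold. With 1 library per group, no test was run.

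Named genes were, per gate and comparison, the 2 higher and 2 lower members whose interval ended farthest from 0, isoform families, the 2 highest and 1 lowest per complex, members apart the same way in both genotypes, and all of complex II. The members and lists were chosen with earlier results of these data known. T and B cell, neural and erythroid markers were each under 0.001% of UMIs in every gate. Alternatives were TMM and median-of-ratios scaling (over 10619 genes), a denominator without mitochondrial and ribosomal UMIs, no cell filter, exclusive gates, other UMI minimums and depth windows. Gene overlaps and coding lengths came from GENCODE. The computations were tested on simulated data. Python 3.11.15, numpy 2.4.6, scipy 1.17.1 and matplotlib 3.10.9 were used.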

Additional observations from a re-analysis of the deposited data

Results flagged for a closer look

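In fibroblasts, the summed complex I differed in direction between the genotypes. AngII over saline was at a log2 ratio of 0.11 in WT and −0.10 in KO, a difference of 0.21. This difference was not tested, since each group is 1 library. The KO ratio was 0.21 with TMM and 0.13 with median-of-ratios factors, so its direction depended on the scaling. Median UMIs per fibroblast were 3608 and 9154 in WT and 3874 and 11779 in KO, and their part in the difference was not tested.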

How the results depend on the processing

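No paired analysis was possible because each group has 1 library, and for the same reason no library could be left out. All 12 summed ratios stayed within their counting intervals without the cell filter. In AngII against saline, the sign of the summed ratio in smooth muscle cells changed with TMM and with median-of-ratios scaling. In fibroblasts its size changed both with the scaling and with the depth window. KO saline phagocytes (83 cells) limit that gate. Below, treatment is AngII over saline and genotype is KO over WT, and each value is one that left its counting interval or, for a count, moved by more than 1.5 times. The causes were not tested. Member counts under another scaling have no share of all genes on that scaling beside them.

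With TMM scaling, the summed log2 ratio was in smooth muscle cells 0.05 (WT treatment), 0.13 (KO treatment), 0.05 (saline genotype) and 0.11 (AngII genotype), in fibroblasts 0.33 (WT treatment), 0.39 (KO treatment), 0.15 (saline genotype) and 0.23 (AngII genotype), in phagocytes 0.33 (WT treatment), 0.38 (KO treatment), 0.04 (saline genotype) and 0.10 (AngII genotype). The number of higher members was in smooth muscle cells 8 (KO treatment) and 6 (AngII genotype), in fibroblasts 43 (WT treatment), 40 (KO treatment) and 20 (AngII genotype), in phagocytes 38 (WT treatment), 42 (KO treatment) and 3 (saline genotype). The number of lower members was in smooth muscle cells 5 (WT treatment), 4 (KO treatment) and 1 (AngII genotype), in fibroblasts 4 (KO treatment), in phagocytes 1 (WT treatment), 2 (KO treatment) and 3 (saline genotype). The number at 1.5-fold was in smooth muscle cells 5 (KO treatment), in fibroblasts 4 (saline genotype) and 3 (AngII genotype), in phagocytes 9 (WT treatment) and 14 (KO treatment). With median-of-ratios scaling, the summed log2 ratio was in smooth muscle cells 0.09 (WT treatment), 0.13 (KO treatment) and 0.08 (AngII genotype), in fibroblasts 0.29 (WT treatment), 0.32 (KO treatment), 0.17 (saline genotype) and 0.20 (AngII genotype), in phagocytes 0.33 (WT treatment) and 0.36 (KO treatment). The number of higher members was in smooth muscle cells 8 (KO treatment) and 4 (AngII genotype), in fibroblasts 35 (WT treatment), 27 (KO treatment) and 16 (AngII genotype), in phagocytes 38 (WT treatment) and 41 (KO treatment). The number of lower members was in smooth muscle cells 4 (WT treatment) and 3 (KO treatment), in fibroblasts 5 (KO treatment), in phagocytes 1 (WT treatment). The number at 1.5-fold was in smooth muscle cells 4 (WT treatment) and 5 (KO treatment), in fibroblasts 3 (AngII genotype), in phagocytes 9 (WT treatment) and 12 (KO treatment). With the denominator without mitochondrial and ribosomal UMIs, the summed log2 ratio was in smooth muscle cells −0.07 (WT treatment), −0.04 (KO treatment), 0.06 (saline genotype) and 0.09 (AngII genotype), in fibroblasts 0.14 (WT treatment), 0.15 (KO treatment), 0.15 (saline genotype) and 0.16 (AngII genotype). The number of higher members was in smooth muscle cells 4 (AngII genotype), in fibroblasts 13 (KO treatment) and 12 (AngII genotype). The number at 1.5-fold was in smooth muscle cells 1 (saline genotype), in fibroblasts 4 (saline genotype). With exclusive gates, the summed log2 ratio was in phagocytes 0.24 (WT treatment), 0.29 (KO treatment) and 0.14 (AngII genotype). The share in percent was in smooth muscle cells 2.59 (saline WT), 2.51 (AngII WT), 2.68 (saline KO) and 2.64 (AngII KO), in phagocytes 2.03 (saline WT), 2.16 (saline KO) and 2.64 (AngII KO). With cells of 5000 to 15000 UMIs, the summed log2 ratio was in smooth muscle cells −0.02 (WT treatment), −0.06 (KO treatment), 0.05 (saline genotype) and 0.02 (AngII genotype), in fibroblasts 0.08 (WT treatment), 0.04 (KO treatment), 0.15 (saline genotype) and 0.10 (AngII genotype), in phagocytes 0.15 (WT treatment), 0.05 (saline genotype) and 0.13 (AngII genotype). The number of higher members was in smooth muscle cells 2 (KO treatment) and 1 (AngII genotype). The number of lower members was in fibroblasts 10 (WT treatment), in phagocytes 4 (WT treatment), 7 (KO treatment) and 3 (saline genotype). The number at 1.5-fold was in smooth muscle cells 1 (saline genotype), in fibroblasts 5 (KO treatment) and 2 (saline genotype), in phagocytes 4 (WT treatment), 9 (KO treatment), 2 (saline genotype) and 0 (AngII genotype). The share in percent was in smooth muscle cells 2.55 (saline WT), 2.51 (AngII WT), 2.65 (saline KO) and 2.54 (AngII KO), in fibroblasts 1.93 (saline WT), 2.04 (AngII WT), 2.13 (saline KO) and 2.20 (AngII KO), in phagocytes 2.15 (saline WT) and 2.37 (AngII WT). With cells of at least 4000 UMIs, chosen after seeing the data, the summed log2 ratio was in smooth muscle cells −0.04 (WT treatment), in fibroblasts 0.12 (WT treatment), 0.11 (KO treatment) and 0.13 (saline genotype). The share in percent was in smooth muscle cells 2.57 (saline WT) and 2.65 (saline KO), in fibroblasts 1.93 (saline WT) and 2.12 (saline KO). With a minimum of 20 UMIs, the number of lower members was in phagocytes 3 (saline genotype) and 3 (AngII genotype). The number at 1.5-fold was in smooth muscle cells 1 (AngII genotype), in phagocytes 4 (WT treatment), 3 (saline genotype) and 2 (AngII genotype). With no UMI minimum, the number of higher members was in smooth muscle cells 4 (AngII genotype), in phagocytes 11 (saline genotype). The number of lower members was in smooth muscle cells 2 (saline genotype), in fibroblasts 8 (WT treatment) and 8 (AngII genotype), in phagocytes 7 (KO treatment), 3 (saline genotype) and 3 (AngII genotype). The number at 1.5-fold was in smooth muscle cells 5 (KO treatment) and 2 (AngII genotype), in phagocytes 5 (WT treatment), 5 (saline genotype) and 2 (AngII genotype).

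In cells of 5000 to 15000 UMIs, 2 member ratios changed sign: Cox4i2 in fibroblasts between the AngII libraries, at 0.06, and Sdhaf2 in phagocytes in KO AngII over KO saline, at −0.01.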
